A study of Mus musculus with 82 samples.

Results

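The sites bound by Brachyury joined to green fluorescent protein (BraGFP) were set against the sites bound by Eomes joined to the VP16 activation domain (EoVP16), as deposited peak lists of chromatin immunoprecipitation with sequencing (ChIP-seq). A site was called common when peaks of the 2 lists shared at least 1 bp. The BraGFP list held 27588 peaks and the EoVP16 list 36203, of 132113 peaks in the 4 lists of T-box proteins analysed, and the lists stand for 3 of the 82 libraries of the series. Both proteins were expressed from doxycycline-inducible constructs in mouse embryonic stem cells of the A2lox.Cre line lacking Eomes and Brachyury (dKO). The cells were grown as embryoid bodies with human activin A at 30 ng/ml and doxycycline from day 2, and were fixed on day 5. The BraGFP list is a single list for 2 libraries made with an antibody against GFP, and the EoVP16 list comes from 1 library made with an antibody against the V5 tag. Protein, activation domain, antibody, number of libraries and the minimum height of the deposited peaks (40 fragments for BraGFP and 36 for EoVP16 per the file names) all differed between the lists, so their effects cannot be told apart. Libraries without doxycycline were not analysed here.

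Eomes and Brachyury (gene symbol T) are transcription factors of the T-box family, which bind DNA through a shared domain that reads variants of the letters AGGTGTGA. In the gastrulating embryo both are made in the primitive streak, where Eomes is needed for definitive endoderm and cardiac mesoderm, and Brachyury for posterior mesoderm, the notochord and tail outgrowth. VP16 is the strong transcriptional activation domain of a herpesvirus protein, so a VP16 fusion turns a DNA-binding protein into an activator at its sites. With 1 list for each protein no replicate value exists and no test was run. Shares below carry 95% Wilson intervals, pileups of single peaks carry exact Poisson intervals, and both cover counting error only. How deeply each library was sequenced cannot be read from the lists.

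Of the 36203 EoVP16 peaks, 9289 (25.7%, interval 25.2 to 26.1) overlapped a BraGFP peak, and 9371 of the 27588 BraGFP peaks (34.0%) overlapped an EoVP16 peak. The overlap was uneven along genes. With a peak midpoint within 1 kb of either end of a protein-coding gene, 3773 of 4444 BraGFP peaks (84.9%, interval 83.8 to 85.9) coincided with an EoVP16 peak. Elsewhere this held for 5598 of 23144 (24.2%, interval 23.6 to 24.7). Seen from EoVP16, the difference was smaller, with 3760 of 10096 peaks at gene ends (37.2%, interval 36.3 to 38.2) and 5529 of 26107 elsewhere (21.2%, interval 20.7 to 21.7). Inside genes and away from their ends, 22.5% of EoVP16 peaks were common, and outside genes 19.9%. For BraGFP peaks these shares were 23.4% and 25.1%. Of BraGFP peaks with no EoVP16 partner, 671 of 18217 (3.68%) lay at gene ends, beside 16.1% of all BraGFP peaks. Of EoVP16-only peaks, 6336 of 26914 (23.5%) lay there, beside 27.9% of all EoVP16 peaks. EoVP16 covered many gene starts with or without BraGFP. Of 21238 windows around coding gene starts, 19.5% lay under peaks of both lists and 31.3% under EoVP16 alone. How much overlap at gene ends this coverage alone would give was not tested.

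Gene starts and other gene ends were then separated with RefSeq transcription start sites. Start sites were at hand for 17469 of the 21887 coding genes, so the other ends include starts of genes without one. At starts, 2923 of 3121 BraGFP peaks (93.7%, interval 92.7 to 94.5) were common. At the other ends, 850 of 1323 (64.2%, interval 61.6 to 66.8) were. The same split moved EoVP16 peaks less, from 39.2% common at starts to 31.7% at other ends. Common peaks overlap by definition, and at the median 100% of the shorter peak was covered. The EoVP16 summit, the base of greatest height, lay inside the BraGFP peak in 97.1% of the common EoVP16 peaks. The median distance of the summit from the midpoint of the BraGFP peak was 152 bp at gene ends and 83 bp elsewhere. From the midpoint of its own EoVP16 peak it was 184 and 80 bp.

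Promoter sequences show what lay under the 3 kinds of site. Each window below runs 5′ to 3′ on the gene's strand, from 250 bases before to 50 bases after the transcription start, with sequence from RefSeq (GRCm38.p6) and the half-site GTGTGA, on either strand, in capitals. The first 3 windows lay under tall common sites, the next 2 under EoVP16-only sites of streak genes, and the last 2 under wide BraGFP-only sites. They were chosen after their values were seen. Lrig1 (chr6:94700096-94700395, minus strand) encodes a feedback inhibitor of ErbB receptors and had the third tallest common peak at a gene end. Ccdc163 (chr4:116708345-116708644, plus strand) holds a full AGGTGTGA followed directly by another half-site. Cdkn1a (chr17:29093519-29093818, plus strand) encodes the cell cycle inhibitor p21. Mesp1 (chr7:79793541-79793840, minus strand) encodes a bHLH factor of early cardiac mesoderm. Evx1 (chr6:52313248-52313547, plus strand) encodes a homeodomain factor of the posterior streak. Msgn1 (chr12:11208899-11209198, minus strand) encodes mesogenin, a bHLH factor of presomitic mesoderm. Mycn (chr12:12941787-12942086, minus strand) encodes the N-Myc factor.
Lrig1: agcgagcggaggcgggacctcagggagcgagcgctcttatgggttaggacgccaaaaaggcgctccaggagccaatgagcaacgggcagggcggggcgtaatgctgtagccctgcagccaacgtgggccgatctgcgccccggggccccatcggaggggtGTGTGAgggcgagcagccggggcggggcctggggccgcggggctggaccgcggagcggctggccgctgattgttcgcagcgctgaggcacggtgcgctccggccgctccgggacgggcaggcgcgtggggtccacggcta
Ccdc163: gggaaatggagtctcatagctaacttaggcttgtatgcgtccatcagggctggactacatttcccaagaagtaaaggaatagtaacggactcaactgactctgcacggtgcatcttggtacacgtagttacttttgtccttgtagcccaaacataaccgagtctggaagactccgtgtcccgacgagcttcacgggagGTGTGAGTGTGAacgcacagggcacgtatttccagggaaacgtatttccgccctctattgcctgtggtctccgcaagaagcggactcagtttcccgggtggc
Cdkn1a: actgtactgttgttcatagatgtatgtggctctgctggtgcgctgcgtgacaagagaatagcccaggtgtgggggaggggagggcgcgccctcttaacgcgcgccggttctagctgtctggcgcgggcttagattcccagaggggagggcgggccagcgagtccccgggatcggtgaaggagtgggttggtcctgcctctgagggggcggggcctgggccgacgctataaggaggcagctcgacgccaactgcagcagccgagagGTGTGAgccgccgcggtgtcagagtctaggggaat
Mesp1: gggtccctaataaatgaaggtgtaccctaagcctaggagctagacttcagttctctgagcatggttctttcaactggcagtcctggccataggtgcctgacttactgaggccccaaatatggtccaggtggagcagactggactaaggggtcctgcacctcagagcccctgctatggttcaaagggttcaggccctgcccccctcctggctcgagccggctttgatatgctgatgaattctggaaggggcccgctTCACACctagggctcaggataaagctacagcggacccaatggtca
Evx1: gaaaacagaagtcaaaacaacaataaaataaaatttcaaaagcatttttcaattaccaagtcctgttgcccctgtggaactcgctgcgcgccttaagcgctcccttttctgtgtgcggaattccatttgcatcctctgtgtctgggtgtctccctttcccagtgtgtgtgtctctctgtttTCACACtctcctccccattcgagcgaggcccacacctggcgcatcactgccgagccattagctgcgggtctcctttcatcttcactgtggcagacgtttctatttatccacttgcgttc
Msgn1: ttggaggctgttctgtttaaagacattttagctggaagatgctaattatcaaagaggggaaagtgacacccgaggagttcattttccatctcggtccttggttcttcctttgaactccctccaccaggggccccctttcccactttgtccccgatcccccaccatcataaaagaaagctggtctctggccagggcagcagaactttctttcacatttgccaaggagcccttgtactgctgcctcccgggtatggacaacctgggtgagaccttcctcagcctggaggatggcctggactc
Mycn: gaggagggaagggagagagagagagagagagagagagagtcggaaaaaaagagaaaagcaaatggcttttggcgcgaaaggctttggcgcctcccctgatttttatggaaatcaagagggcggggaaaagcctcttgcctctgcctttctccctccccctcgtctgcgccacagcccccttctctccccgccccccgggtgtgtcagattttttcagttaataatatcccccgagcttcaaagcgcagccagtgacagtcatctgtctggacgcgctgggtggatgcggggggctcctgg

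The Lrig1 window was covered by an EoVP16 peak of 502 fragments (interval 459 to 548) and by a BraGFP peak of 948 bp. The Ccdc163 window lay under 281 fragments of EoVP16 and 627 bp of BraGFP, and its 2 half-sites start 52 and 46 bases before the transcription start. The Cdkn1a window lay under 230 fragments and a BraGFP peak of 1845 bp, and its AGGTGTGA lies just downstream of the start. Another Cdkn1a start window (chr17:29090729-29091028), not shown, lay under an EoVP16 peak of 45 fragments and no BraGFP peak, and held no half-site. At Mesp1 the letters AGGTGTGA stand on the opposite strand, just downstream of the start. The window lay under an EoVP16 peak of 44 fragments and no BraGFP peak. The summit of that peak lay 552 bases downstream of the start, outside the window. The Evx1 window had 1 half-site and an EoVP16 peak of 64 fragments, again with no BraGFP peak. Fragment numbers are heights at the summit and not over the letters. The summit lay 236 bases before the start at Lrig1, 109 at Ccdc163, 131 at the Cdkn1a window shown and 2 at Evx1. The Msgn1 window held neither form and was covered by a BraGFP peak of 1820 bp, with no EoVP16 peak. The Mycn window held neither form under the widest BraGFP-only peak at a gene end, of 3306 bp.

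Over 21238 such windows of 17469 coding genes, 4139 lay under peaks of both lists, 6641 under EoVP16 alone, 249 under BraGFP alone and 10209 under neither. The letters AGGTGTGA, searched on both strands, occurred in 0.99% of windows under both (41 windows, interval 0.73 to 1.34) in 0.74% of those under EoVP16 alone and in 0.80% (2 windows) of those under BraGFP alone. The share was 1.5% in windows under neither and 1.15% over all windows. The shorter GTGTGA, which the longer form contains, occurred in 11.9% of windows under both, 9.59% under EoVP16 alone, 14.5% under BraGFP alone (interval 10.6 to 19.4) and 16.1% under neither, against 13.2% of all windows. In none of the 3 bound classes was the share of either form above that of unbound windows, and for the 249 windows under BraGFP alone the intervals include it. Base composition moved with the classes, with a median GC content of 62.3% under both, 62.3% under EoVP16 alone, 55.7% under BraGFP alone and 49.3% under neither. Among windows of 55 to 65% GC, AGGTGTGA occurred in 0.88% of windows under both, 0.92% under EoVP16 alone and 1.91% under neither.

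**Figure D1:**
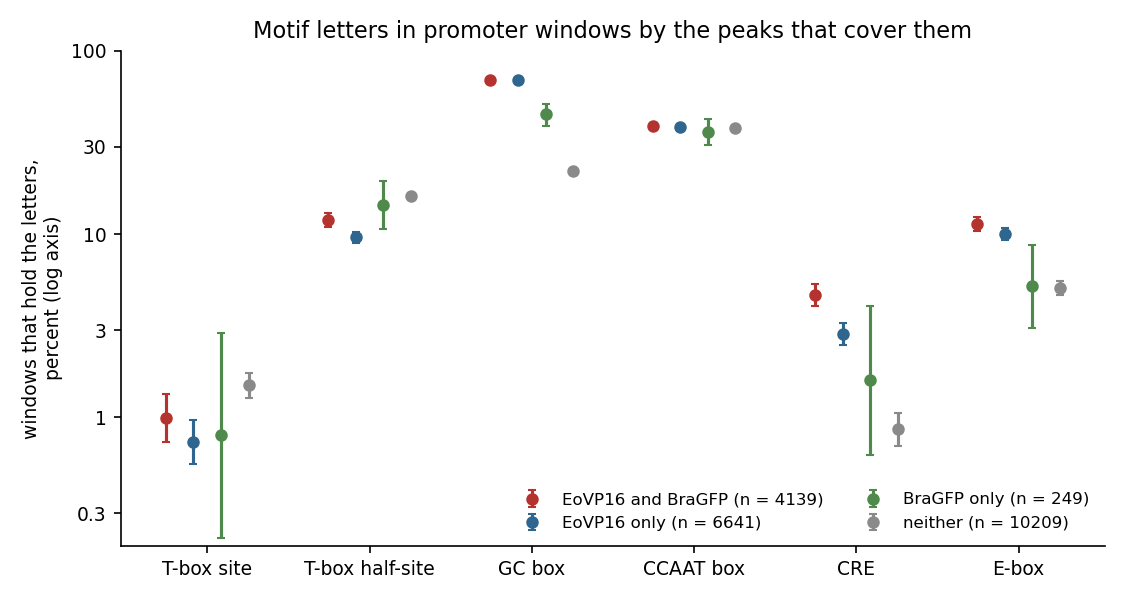
Share of promoter windows (percent, log axis, with 95% Wilson intervals) that hold each set of letters on either strand, by the peaks that cover the window. CRE letters stand at 4.66% of windows under both lists and 2.86% under EoVP16 alone, with intervals that do not overlap.

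Some other promoter letters were more frequent under EoVP16 peaks than under neither list. The cyclic AMP response element, TGACGTCA, occurred in 4.66% of windows under both lists (interval 4.06 to 5.35), 2.86% under EoVP16 alone (interval 2.49 to 3.29) 1.61% under BraGFP alone and 0.86% under neither, beside 2.24% of all windows. The GC box GGGCGG, read by Sp factors, occurred in 69.3% under both, 69.0% under EoVP16 alone, 45% under BraGFP alone and 22.0% under neither, against 46.2% of all. The CCAAT box was at similar shares under both (38.9%), under BraGFP alone (36.1%), under neither (37.7%) and over all windows (38.2%). The E-box CACGTG occurred in 11.3% under both, 10.0% under EoVP16 alone, 5.22% under BraGFP alone and 5.07% under neither, against 7.84% of all. TGACGTCA, GGGCGG and CACGTG each contain CG, and they were not compared among windows of equal GC content. The median number of CG dinucleotides was 23 under both, 22 under EoVP16 alone, 10 under BraGFP alone and 4 under neither. Where both lists covered a window, the tallest EoVP16 peak over it had a median of 111 fragments in the 41 windows with AGGTGTGA (interquartile range 83 to 142) and 78 fragments in the 4098 without it (63 to 97). Under EoVP16 alone the medians were 58 and 56 fragments. These matches are descriptions of letters and not of occupied sites.

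EoVP16 peaks that coincided with BraGFP were taller. The deposited pileup, the number of fragments stacked at the summit, had a median of 77 at common gene ends (interquartile range 61.8 to 96) and of 54 at EoVP16-only gene ends (45 to 66). Elsewhere the medians were 67 (49 to 99) and 48 (40 to 63). The interquartile ranges of common and EoVP16-only peaks overlapped in both locations. Peaks of at least 100 fragments made up 22.4% of common and 4.02% of EoVP16-only peaks at gene ends, and 24.5% and 6.75% elsewhere. Height thus separated the classes at gene ends and away from them alike, by 23 and 19 fragments in the medians.

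**Figure D2:**
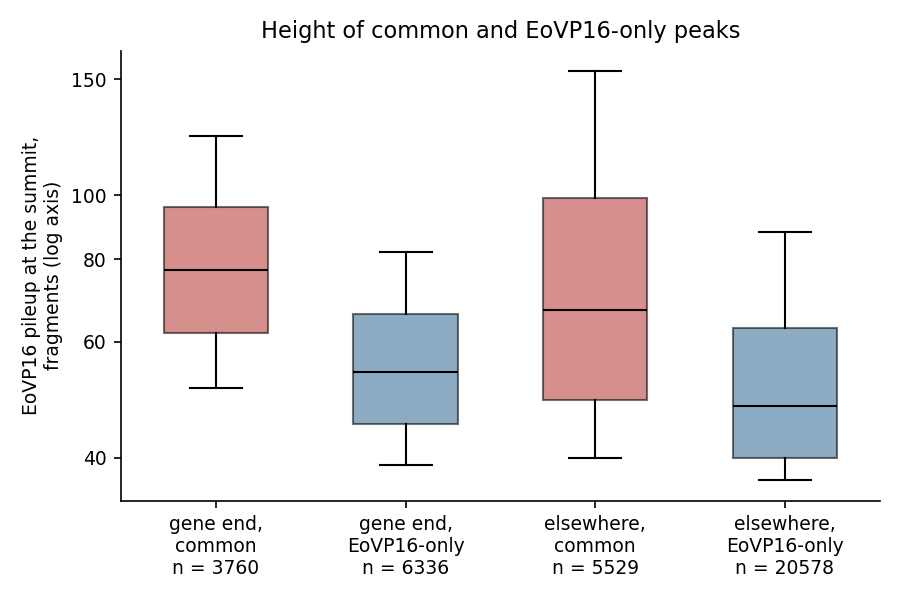
EoVP16 pileup at the summit (fragments, log axis) of common and EoVP16-only peaks at coding gene ends and elsewhere, with boxes for the quartiles, a line for the median and whiskers from the 10th to the 90th percentile of peaks. The medians are 77 and 54 at gene ends, and 67 and 48 elsewhere.

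The deposited fold enrichment gave the same order, with medians of 12.9 (common) and 9.19 (EoVP16-only) at gene ends and 11.2 and 8.02 elsewhere. It is not a separate measurement of the sites. The fold equals the pileup plus 1 divided by the caller's local background plus 1, and that divisor was at its lowest value, 5.98, in 84.2% of peaks, so that the fold was there a rescaled pileup. The divisor was at its lowest value in 89.6% of common and 88.5% of EoVP16-only peaks at gene ends, and in 82.0% and 82.5% elsewhere. Of the 5705 peaks with a raised divisor, 24.3% were common, beside 25.9% of the others.

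The share of common peaks rose with height, more steeply at gene ends. With all EoVP16 peaks ranked by pileup and split into 10 equal groups, 8.45% of the lowest group at gene ends (36 to 38 fragments) and 10.3% elsewhere were common. The 2 locations were still alike from 41 to 45 fragments (12.3% and 12.3%). From 68 to 79 fragments the shares were 49.2% and 29.9%, and in the tallest group, from 102 fragments, 77.3% (interval 74.6 to 79.7) and 50.0% (interval 48.1 to 51.9). Higher up, common peaks outnumbered the others away from gene ends, with 184 against 91 from 200 to 299 fragments and 137 against 44 from 300 fragments.

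**Figure D3:**
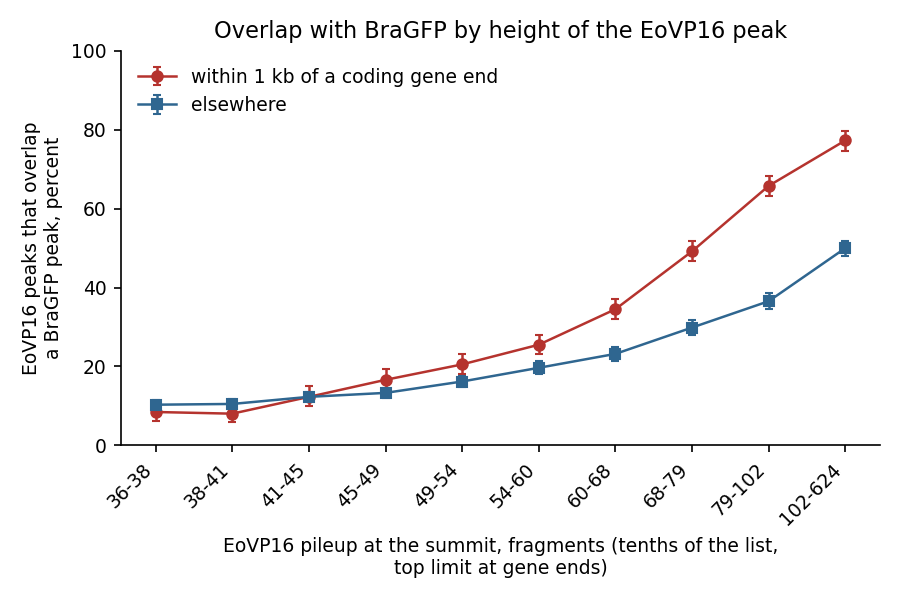
Share of EoVP16 peaks that overlap a BraGFP peak (percent, with 95% Wilson intervals) in 10 equal groups of EoVP16 pileup (fragments), at coding gene ends and elsewhere. The gene end shares go from 8.45% in the lowest group to 77.3% in the tallest, and those elsewhere from 10.3% to 50.0%.

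Width moved with height and with overlap. Common peaks had a median width of 1462.5 bp at gene ends and 839 bp elsewhere, and EoVP16-only peaks 1196 and 631 bp. In 10 equal groups of width, common peaks were the taller ones except among the narrowest at gene ends. In the narrowest group at gene ends, the median pileup was 41 fragments in common and 41 in EoVP16-only peaks, and in the next 43 and 43. In the widest group it was 81 and 61 fragments at gene ends, and 90 and 64 elsewhere. BraGFP peaks carry no height in the deposited list, but their widths showed the same direction. Of BraGFP peaks elsewhere, 10.8% of the narrowest group and 60.1% of the widest were common, and at gene ends 22.8% and 95.7%.

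The tallest common sites at gene ends lay near genes with no evident tie to the primitive streak. The tallest, with 624 fragments (interval 576 to 675), lay 0.676 kb from Olfr368, an olfactory receptor gene (chr2:37330039-37332107). Next came 583 fragments near Tas2r109, a bitter taste receptor gene (chr6:132978706-132980328), and 502 at Lrig1 (chr6:94698307-94701046). Map3k7, which encodes the TAK1 kinase of the TGF-beta pathway, followed with 459 fragments. Efnb3, a ligand of Eph receptors, had 423, Gm5431 had 415, the katanin subunit gene Katnal1 had 393 and the deubiquitinase gene Usp47 had 359. Thoc1, a subunit of the THO complex of mRNA export, had 330, and the serine protease inhibitor gene Serpina5 had 301. Each of these 10 peaks met 1 BraGFP peak, of 702 to 1874 bp. Just outside the 10, Cfc1, which encodes the Nodal co-receptor Cryptic, had a common peak of 272 fragments (interval 241 to 306) at chr1:34534979-34537906, also present in both other Eomes lists. Cfc1 was singled out after its value was seen.

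Away from gene ends the very tallest common sites exceeded those at gene ends, although the median was lower. The tallest reached 1212 fragments (interval 1145 to 1282) at chr10:22340926-22343621, 19.6 kb from Raet1d, which encodes a ligand of the NKG2D receptor of killer cells. The second reached 1007 fragments 48.2 kb from Lrrc8b, a subunit of volume-regulated anion channels. The next were 980 fragments 69.6 kb from Gm38702, 928 fragments 3.57 kb from the olfactory receptor gene Olfr1109 and 878 fragments 20.2 kb from the vomeronasal receptor gene Vmn1r184. A pair of sites of 837 and 835 fragments stood 77.0 and 83.6 kb from Gm10058 on the X chromosome. Cntnap5b (784), Cdh20 (767) and Naip2 (710) completed the 10, the Cdh20 site at 1742 kb from the gene and the Naip2 site inside it. Of the 50 tallest common sites elsewhere, 12 (24.0%, interval 14.3 to 37.4) lay over 50 kb from any coding gene, beside 16.5% of all common sites elsewhere, a share inside that interval. Of the 50 tallest EoVP16-only sites elsewhere, 16 (32.0%) did, beside 20.2% of all EoVP16-only sites there.

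Receptor genes and numbered gene models recurred among these names, a grouping made after the values were seen. Of the 50 tallest common sites over both locations, 16 (32.0%, interval 20.8 to 45.8) had as nearest coding gene an Olfr, Vmn or Tas2r receptor gene or a gene with a Gm number. The share was 2.37% over the other 9239 common sites and 4.00% in the 50 tallest EoVP16-only sites. Such genes made up 12.9% of all coding genes.

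The tallest EoVP16-only peaks named other genes. At gene ends they were Pmepa1, a TGF-beta target that restrains Smad signalling, with 372 fragments (interval 335 to 412) at chr2:173276379-173277506, then Uckl1 and Rab11fip1 with 277 each, Tmem119 with 269 and Zfp384 with 248. Elsewhere the tallest was inside Trio, a guanine nucleotide exchange factor gene, with 1379 fragments (interval 1307 to 1454) at chr15:27741377-27742841, above every common site. It was followed by Hnrnpll (725), Med21 (646), Noc3l (629) and Wnt5b, a non-canonical Wnt ligand gene, with 607 fragments inside the gene. The Trio peak was 1465 bp wide and present in both other Eomes lists.

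The 2 other Eomes lists of the series, Eomes with a GFP tag (EoGFP, 30129 peaks, minimum pileup 120) and Eomes with a V5 tag (EoV5, 38193 peaks, minimum pileup 60), were used to ask which sites recur. Both had the same cells and treatment. EoGFP shares the GFP tag with BraGFP, and EoV5 shares the V5 tag with EoVP16. Recurrence of sites and a shared tag therefore cannot be told apart here. Of common peaks at gene ends, 89.3% overlapped an EoGFP peak and 77.6% an EoV5 peak, beside 67.2% and 43.6% of EoVP16-only peaks there. Over all EoVP16 peaks the shares were 57.9% and 56.9%. Since taller peaks recurred more often, the classes were also compared at equal height. From 36 to 49 fragments the EoGFP shares were 41.7% for common and 31.1% for EoVP16-only peaks, from 50 to 74 fragments 77.2% and 65.7%, and from 75 to 99 fragments 90.2% and 83.5%. From 100 to 149 fragments they were 90.4% and 89.9%. Over both locations, common peaks thus recurred more often in EoGFP in the lower bands, which hold most peaks, and not in this one. For EoV5 the classes differed at gene ends, with 64.8% of common and 48.6% of EoVP16-only peaks from 50 to 74 fragments. Elsewhere the EoV5 shares were close, at 38.9% and 37.8% from 36 to 49 fragments and 63.1% and 62.9% from 50 to 74. From 75 to 99 fragments they were 85.8% and 87.9% there.

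At the greatest heights the order reversed for EoGFP. Among peaks of 300 fragments or more, 64.6% of the 147 common ones (interval 56.6 to 71.9) and 97.8% of the 45 EoVP16-only ones (interval 88.4 to 99.6) overlapped EoGFP. Of the 50 tallest common sites 19 (38%, interval 25.9 to 51.8) were in EoGFP, whereas 49 (98.0%) were in EoV5. Of the 50 tallest EoVP16-only sites 48 (96.0%) were in EoGFP and all 50 were in EoV5. Of the 50 tallest common sites in each location, 56.0% at gene ends and 40.0% elsewhere were in EoGFP. For the 50 tallest EoVP16-only sites the shares were 84.0% and 96.0%. These sets differ in height, at gene ends 200 to 624 fragments (common) and 140 to 372 (EoVP16-only). Elsewhere, from 300 fragments, 67.2% of 137 common and 97.7% of 44 EoVP16-only peaks were in EoGFP. At gene ends 25 of 40 and 6 of 8 were from 200 to 299 fragments, and 3 of 10 and 1 of 1 above. The order at gene ends thus rests on few EoVP16-only peaks. Of the 10 tallest common sites at gene ends named above, Efnb3, Gm5431 and Serpina5 were in EoGFP and the other 7 were not, while all 10 were in EoV5. Those 7 sites thus recurred in BraGFP, EoVP16 and EoV5 without a deposited EoGFP peak. The EoGFP list has the highest minimum pileup of the 4, and EoV5 shares its tag with EoVP16. The part of either in this was not tested.

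**Figure D4:**
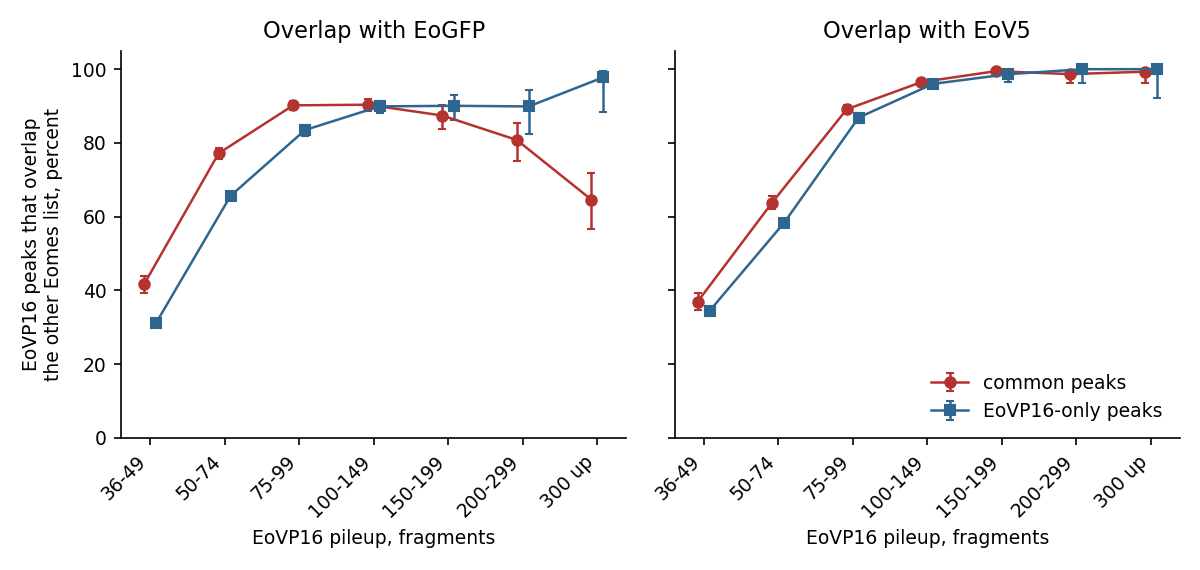
Share of EoVP16 peaks that overlap an EoGFP peak (left) or an EoV5 peak (right), in percent with 95% Wilson intervals, by EoVP16 pileup (fragments), for common and EoVP16-only peaks. In the band of 300 fragments and more the EoGFP shares are 64.6% and 97.8%.

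BraGFP-only peaks recurred rarely in any Eomes list. Of the 18217, 5.73% overlapped an EoGFP peak, 7.33% an EoV5 peak and 90.9% neither. At gene ends the shares were 14.3% for EoGFP and 8.79% for EoV5. Of the 50 widest BraGFP-only peaks at gene ends (1341 to 3306 bp), 22 (44.0%, interval 31.2 to 57.7) overlapped EoGFP and 4 (8.00%, interval 3.15 to 18.8) overlapped EoV5, and 20 were in EoGFP without EoV5. These 50 stood above the share of all BraGFP-only peaks at gene ends for EoGFP and not for EoV5. Of the 100 widest there, 40 (40%, interval 30.9 to 49.8) were in EoGFP. In EoV5 were 15 of them (15%, interval 9.31 to 23.3), also above the share of all, so the EoV5 part depends on the cut. EoGFP shares its tag with BraGFP, and the part of the tag was not tested. Elsewhere, of the 50 widest, 14 were in EoGFP and 6 in EoV5. The widest at gene ends were at Mycn (3306 bp), the desaturase gene Scd2 (2837 bp), the Notch effector gene Hes1 (2737 bp), Ranbp3l (2449 bp) and the ERK phosphatase gene Dusp5 (2436 bp). All but Ranbp3l were in EoGFP and none of the 5 was in EoV5. Elsewhere the widest lay in Tgif1, a homeodomain corepressor of Smad signalling (4034 bp), in the planar polarity gene Prickle1 (3433 bp), beside the Polycomb partner gene Jarid2 (3421 bp), near Gng2 (3265 bp) and in Zfp608 (3037 bp). Of these, Gng2 was in neither other list and Tgif1 was in both. The widest common BraGFP peaks at gene ends were at Foxo3 (5179 bp), the Groucho corepressor gene Tle3 (4477 bp), Jun (4265 bp), the somite clock gene Hes7 (4139 bp) and Ptma (3787 bp).

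Genes were then counted by the peak midpoints within 50 kb of them. Of 21887 coding genes, 16053 (73.3%) had peaks of both lists, 2382 (10.9%) had EoVP16 peaks without any BraGFP peak, 687 (3.14%) had the reverse and 2765 (12.6%) had neither. The EoVP16 list is the longer one. When it was cut to the taller 50% of its peaks, 1513 genes had EoVP16 without BraGFP and 2045 the reverse, so which count was larger turned with the number of EoVP16 peaks kept. The most one-sided genes for EoVP16 were the gene models Gm40469 and Gm15319 on chromosome 8, with 15 EoVP16 and 0 BraGFP peaks each and none in common with each other. Nfic, a nuclear factor I gene, had 13 to 0, as did the kinase gene Taok1 and the serine dehydratase gene Sdsl. Gm21119, the amino acid transporter gene Slc38a3 and the stress response gene Ppp1r15a had 12 to 0, and the transducin gene Gnat1 and the receptor gene Erbb3 11 to 0. All 11 peaks of Gnat1 were also counted for its neighbour Slc38a3. The Nfic peaks were low, at 36 to 75 fragments.

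The reverse was weaker in number. Tprg had 7 BraGFP and 0 EoVP16 peaks. The granzyme gene Gzmk, the serotonin receptor gene Htr1f and the olfactory receptor gene Olfr330 had 6, and Slc30a8, Esm1, Txndc8, Apba2 and Aim2 had 5. Esm1 and Gzmk shared 4 of these peaks. Genes with peaks of both lists could still be lopsided. Around Sipa1l3, 20 of 24 EoVP16 peaks had no partner while 8 BraGFP peaks were counted, and Slc25a21 (18 to 3) and Sptbn4 (17 to 2) followed. The opposite lean was equal at Rbfox1, a neuronal splicing factor gene spanning 1528 kb (8 EoVP16 and 20 BraGFP peaks), at Slco3a1 (1 to 13) and at the netrin receptor gene Unc5c (4 to 16), each with 12 more BraGFP-only than EoVP16-only peaks. Dscam (2 to 13) and the Notch coactivator gene Maml2 (14 to 24) followed.

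Developmental genes were described through 15 lists, whose members were chosen with earlier results of these data known. In the primitive streak list, 4 of 15 genes (26.7%) had EoVP16 peaks and no BraGFP peak, beside 10.9% of all coding genes, and none had the reverse. The 4 were Mixl1, Gsc, Evx1 and Tdgf1. Mixl1, a homeodomain factor of mesendoderm, had 5 EoVP16 peaks of 36 to 101 fragments, of which 1 of 72 fragments lay at its own gene end. Gsc, a homeodomain factor of the anterior streak and organiser, had 5 of 41 to 80 fragments. Evx1 had 4 of 37 to 64, and Tdgf1, the Nodal co-receptor Cripto, had 3 of 39 to 58. Nodal itself had 8 EoVP16 peaks, 2 of them common, and 4 BraGFP peaks, and its tallest, 149 fragments at 11.8 kb, was EoVP16-only.

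Mesp1 had 7 EoVP16 and 4 BraGFP peaks with 2 EoVP16 peaks in common. Its tallest, 125 fragments at 3.77 kb from the gene, was common and overlapped a BraGFP peak of 1091 bp. At T, a gene knocked out in these cells, 6 EoVP16 peaks stood beside 5 BraGFP peaks and 1 was common, of 138 fragments at 37.5 kb. At Eomes, likewise knocked out, 3 of 5 EoVP16 peaks were common and the tallest, 99 fragments, was not. Streak genes therefore ranged from fully one-sided to mixed.

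Of 16 definitive endoderm genes, 3 (18.8%) had EoVP16 alone and 26.7% of the EoVP16 peaks were common, beside 28.0% over all coding genes. The 3 genes were Otx2 (5 peaks of 36 to 55 fragments), Foxa3 (5 peaks of 38 to 66) and Gsc. Otx2 is a homeodomain factor of the epiblast, anterior endoderm and forebrain, and Foxa3 a forkhead factor of gut endoderm. Foxa1, a pioneer factor of the same family, had 8 EoVP16 and 3 BraGFP peaks, and its tallest site, 215 fragments at 24.2 kb, was EoVP16-only. Of 15 neural plate genes, 5 (33.3%) had EoVP16 alone and none BraGFP alone. They were Zic2 and Zic5, which share 5 peaks of 40 to 67 fragments, Zic1 (4 peaks of 43 to 60), Sox1 (4 peaks of 37 to 57) and Sox3 with 1 peak. Hesx1 had 9 EoVP16 peaks and 1 BraGFP peak. Over the neural plate list 15.4% of EoVP16 peaks were common, against 28.0% over all coding genes, each peak counted once for each gene it lies near.

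**Figure D5:**
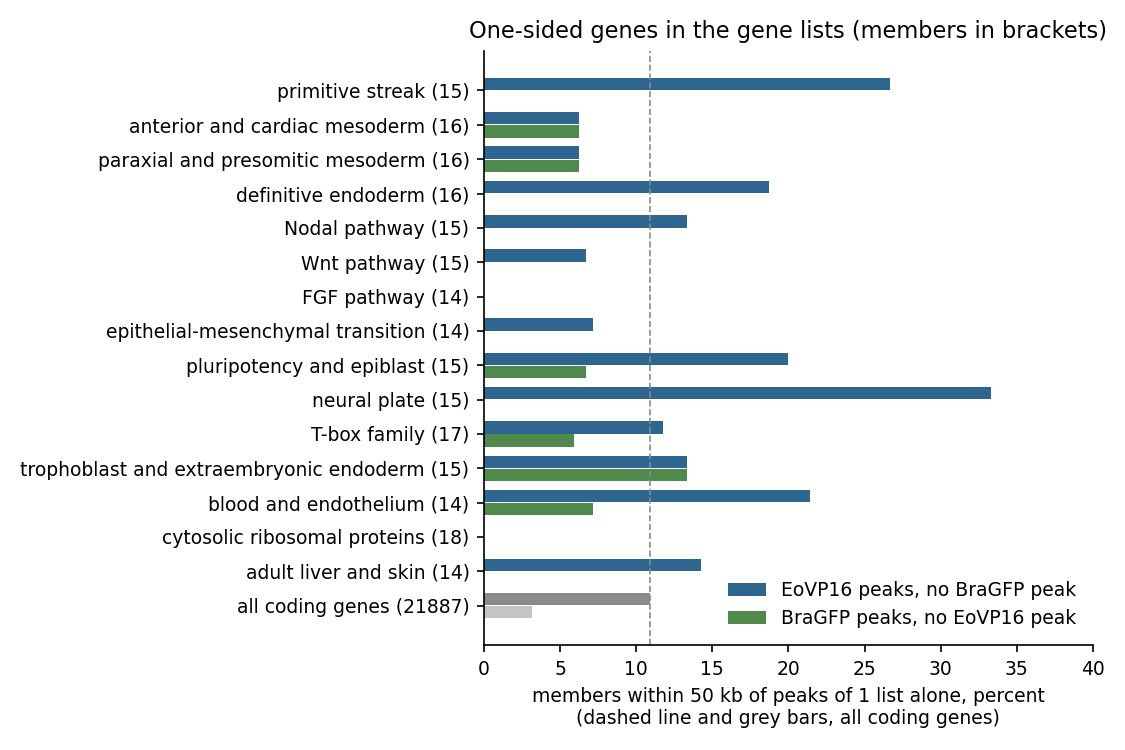
Share of the members of each gene list (percent) with peak midpoints of 1 list within 50 kb and none of the other, for EoVP16 alone (blue) and BraGFP alone (green), with all coding genes in grey and as a dashed line. The neural plate list stands at 33.3% and the primitive streak list at 26.7%, beside 10.9% of all coding genes.

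Mesoderm genes were described through a paraxial and a cardiac list. In the paraxial and presomitic list, 13 of 16 genes (81.2%) had a common EoVP16 peak, beside 57.6% of all coding genes, and 31.0% of their EoVP16 peaks were common, beside 28.0% over all coding genes. Lfng, a modifier of Notch, was the 1 gene with EoVP16 alone (3 peaks of 36 to 68 fragments), and Cdx4, a caudal factor of the tail bud, the 1 with BraGFP alone (3 peaks of 454 to 717 bp). Hes7 had 14 EoVP16 and 6 BraGFP peaks, with a common site of 98 fragments and 4139 bp at its end. A BraGFP-only peak of 2175 bp had its midpoint 0.324 kb from Hes7 and reached into the gene. Msgn1 had 2 EoVP16 peaks, both common, and 6 BraGFP peaks. The Msgn1 peak of 1820 bp overlapped the gene, with its midpoint 0.363 kb beyond the gene end, and was in none of the Eomes lists. Tbx6, a T-box factor of presomitic mesoderm, had 11 EoVP16 and 2 BraGFP peaks, and both BraGFP peaks were common.

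In the anterior and cardiac mesoderm list, 10 of 16 genes (62.5%) had a common EoVP16 peak and 24.7% of the EoVP16 peaks were common, beside 57.6% and 28.0% over all coding genes. Foxf1 had EoVP16 alone (4 peaks of 36 to 92 fragments). Tbx5, a T-box factor of heart and forelimb, had 5 BraGFP peaks (348 to 1273 bp) and 0 EoVP16 peaks, and its widest was in both other Eomes lists. Snai1, the repressor of E-cadherin at the epithelial to mesenchymal transition, had 11 EoVP16 and 4 BraGFP peaks and a common site of 100 fragments and 2232 bp close to its end. Tbx5 and Cdx4 were the 2 listed genes with at least 3 BraGFP peaks and no EoVP16 peak.

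In the signalling lists, the shares of genes with EoVP16 alone lay on either side of the 10.9% of all coding genes. In the Nodal list 2 of 15 genes (13.3%) had EoVP16 alone, in the Wnt list 1 of 15 (6.67%) and in the FGF list 0 of 14. None of the 3 lists had a gene with BraGFP alone, beside 3.14% of all coding genes. Of their EoVP16 peaks, 27.8% (Nodal), 20% (Wnt) and 29.7% (FGF) were common, beside 28.0% over all coding genes. Smad7, the inhibitory Smad, had 8 EoVP16 and 9 BraGFP peaks and a common site of 117 fragments at its end. Tcf7l1, a repressor of Wnt targets, had 13 peaks of each list and only 1 in common, of 43 fragments. Wnt5b had 12 EoVP16 and 10 BraGFP peaks with 5 EoVP16 peaks in common. Fgf8, which directs migration from the streak, had 4 and 6 with 2 in common. Cdh2 (N-cadherin), from the epithelial-mesenchymal transition list, had 7 and 10 with 4 in common. Nanog, a pluripotency factor, had 8 and 3, and all 3 BraGFP peaks were common, the tallest EoVP16 site having 170 fragments.

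The lists of other cell types and unrelated genes give the range to read these against. For blood and endothelium, 3 of 14 genes (21.4%) had EoVP16 alone and 1 (7.14%) BraGFP alone, and for trophoblast and extraembryonic endoderm 2 of 15 (13.3%) each way. Runx1, a factor of blood stem cells, had 15 EoVP16 and 2 BraGFP peaks. Of 14 genes of adult liver and skin, 2 (14.3%) had EoVP16 alone, and of 18 cytosolic ribosomal protein genes none was one-sided, while 17 (94.4%) had a common peak. For EoVP16 alone, 9 of the 15 lists stood above the 10.9% of all coding genes, among them the lists of blood and endothelium and of liver and skin. With 14 to 18 genes a list, 1 gene moves a share by several percentage points.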

How the data were processed

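Peak lists of BraGFP (2 libraries, 1 list), EoVP16 (1 library), EoGFP (2 libraries, 1 list) and EoV5 (1 library) were used as deposited, on mm10 (GRCm38). The submitters' processing notes name Bowtie2 2.3.4, SAMtools 1.3.1, Picard 1.56.0, MACS2 2.1.1.20160309.4 and bedtools 2.27.0, with no order or settings. How the authors joined libraries is not given in the sources used here. For EoVP16 and EoV5 the deposited signal is the pileup in fragments at the summit, the deposited fold is a ratio to the caller's background with 1 added to both, and the deposited −log10 p and q values were not used in any result. The BraGFP and EoGFP lists hold positions only. No column gives library depth.

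Peaks on unplaced contigs were dropped (6 EoVP16 and 7 BraGFP), and repeated entries with the same start and end (26 and 4) were counted once with the tallest summit. Overlap needed 1 bp, and a peak was at a gene end when its midpoint lay within 1 kb of either end of 1 of 21887 coding genes of GRCm38.p6 (RefSeq). Distances from peaks to genes are those of the peak midpoint. The overlap counts were recounted with bedtools 2.31.1, which gave 9289 and 9371, and the scripts were tested on simulated data. Python 3.11.15, pandas 2.3.3, numpy 2.4.6 and scipy 1.17.1 were used. Promoter windows were found for 17469 coding genes. With 1 list for each construct no test between them was possible.

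The members and gene lists were chosen with earlier results of these data known. Named genes were the nearest to the 10 tallest common EoVP16 peaks in each location, the 10 most one-sided genes each way, the 5 with the largest excess each way, the nearest to the 5 tallest EoVP16-only and 5 widest BraGFP-only peaks in each location, and in each list the 3 with most peaks and all with 3 or more peaks of 1 list and 0 of the other. A gene that this rule names is not reported here. Cfc1, Ccdc163, Cdkn1a, Eomes, Msgn1, Sox3, the widest common BraGFP peaks, the receptor grouping and the promoters shown were chosen after values were seen. Alternatives were the summit inside the partner peak, 50% overlap of the shorter peak, 5 kb gene ends, the taller 50% of EoVP16 peaks, peaks of intermediate width, every deposited line, and windows of 10 and 100 kb. Coding gene starts only and peaks at the lowest caller background only were added after seeing the data.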

Additional observations from a re-analysis of the deposited data

How the results depend on the processing

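Of 66 values recomputed under the alternatives, 37 moved by less than the counting interval of the main value or 1.5 times the main count, 29 moved further and no share or difference changed direction, while the order of the 2 one-sided gene counts turned under 1 alternative. Gene ends kept the higher share of common peaks, and common peaks the greater height, under each alternative run. The shares below are given in the order EoVP16 at gene ends, BraGFP at gene ends, EoVP16 elsewhere and BraGFP elsewhere, for which the reported values are 37.2%, 84.9%, 21.2% and 24.2%. With the EoVP16 summit inside the BraGFP peak they were 36.1%, 81.6%, 20.6% and 23.1%. With gene ends reaching 5 kb they were 32.9%, 63.6%, 20.5% and 22.2%. With the taller 50% of EoVP16 peaks they were 49.5%, 73.8%, 32.1% and 16.6%, the differences in median pileup were 16 fragments at gene ends and 15 elsewhere, those in fold 2.67 and 2.34, and 1513 genes had EoVP16 without BraGFP and 2045 the reverse, so that the reverse became the larger count. With peaks of intermediate width only (narrowest, intermediate and widest groups being of equal size) the shares were 27.7%, 74.5%, 20.7% and 22.8%. The differences were then 19 and 16 fragments and 3.17 and 2.79 in fold. At coding gene starts only, the shares were 39.2% and 93.7%. Genes with EoVP16 without BraGFP numbered 4889 within 10 kb and 1409 within 100 kb. No paired analysis was possible because each construct has 1 peak list and the lists carry no replicate numbers. The lists hold only peaks above a minimum pileup, so a missing partner may lie below that minimum, and library depth is unknown.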

Other observations

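Among the widest common BraGFP peaks away from gene ends, Brd2 (5525 bp), a bromodomain gene, was in EoV5 and not in EoGFP. Id2 (3999 bp), an inhibitor of bHLH factors, was in EoGFP and not in EoV5, while Peg3 (4027 bp), Fat4 (3999 bp) and Vcan (3867 bp) were in both. Of the common EoVP16 peaks, 143 (1.54%) met 2 or more BraGFP peaks.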
